A study of Mus musculus with 4 samples.

Results

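The 7 genes described here encode the core of the adherens junction in mouse keratinocytes. They are the cadherins Cdh1 and Cdh3, the catenins Ctnna1, Ctnnb1 and Ctnnd1, and the nectins Pvrl1 and Pvrl4, which are now called nectin 1 and nectin 4. They were taken by name from a table of 23420 gene rows, and each name matched 1 row. RNA had been sequenced from the mouse cell lines MK2 and MK1, each with 2 biological replicates. The labels give the line and name keratinocytes, the main cell type of the epidermis, for every sample, and they name no treatment. Each line stands for itself alone, so every difference below refers to these lines and to the spread between their cultures (replicates 1 and 2).

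Adherens junctions join neighbouring epithelial cells. Classical cadherins reach across the gap between the cells and bind each other in the presence of calcium. Inside the cell their tails hold beta-catenin, which binds alpha-catenin and through it actin, and p120-catenin, which keeps the cadherin at the surface. Nectins are immunoglobulin-like adhesion proteins that begin the contact and are tied to actin through afadin. In epidermis E-cadherin is made in all living layers and P-cadherin mainly in basal cells and hair follicles. In people, mutations in the genes of P-cadherin and of these nectins cause disorders of hair, skin and limbs.

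Libraries held 25237391 and 28601806 counts in MK2 and 30261111 and 26693849 counts in MK1. Summed levels of 7 basal keratinocyte markers were 18021 to 20971 CPM (counts scaled to a fixed effective library size) in MK2 and 21429 to 21714 CPM in MK1, mostly from Krt5 and Krt14. Of the other basal markers Col17a1 was called lower (log2 change -1.06) and Itga6 higher (log2 change 0.83, adjusted p = 5.98e-04 and 7.39e-04 in edgeR's quasi-likelihood test), and Krt15 had 702 and 7 counts in MK2, against 145 and 120 counts in MK1. Sets of 4 simple-epithelium keratins summed to 26.7 to 32.1 CPM in MK2 and 3705 to 3800.2 CPM in MK1. For 7 leukocyte markers the sums were 0.176 to 0.318 CPM in MK2 and 25.2 to 26.0 CPM in MK1. Most of the MK1 leukocyte sum came from Cd74, at 17.9 and 17.7 CPM. Ptprc, Laptm5 and Cd79a were called lower in MK2 as well, and Cd3e, Lyz2 and Itgam had at most 4 counts in a library. Sums over 9 fibroblast markers were 1.03 to 1.41 CPM in MK2 and 3.35 to 3.95 CPM in MK1, and Pdgfrb, Dcn and Lum had 0 counts in all libraries. Most of the MK1 fibroblast sum came from Pdgfra, at 3.22 and 2.53 CPM. Over 6 melanocyte markers the sums were 2.98 to 3.28 CPM in MK2 and 2.68 to 2.73 CPM in MK1, with Dct at 0 counts. For 4 endothelial markers they were 25.4 to 27.4 CPM in MK2 and 14.9 to 17.8 CPM in MK1, nearly all from Kdr, with Cdh5 at 0 counts. For 4 Merkel cell markers they were 6.31 to 10.1 CPM in MK2 and 87.4 to 143 CPM in MK1, with Atoh1 at 0 counts. Most of the MK1 sum came from Krt20, and most of the MK2 sum from Sox2. The part of these transcripts in the results below was not tested. In such bulk RNA, fewer cells of a type and less RNA per cell cannot be told apart.

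All 7 genes were expressed in both lines. In MK2 4 of them fell and 3 did not pass the test. The E-cadherin gene Cdh1 and the nectin 4 gene Pvrl4 had fitted log2 changes of -1.14 and -1.06, the nectin 1 gene Pvrl1 and the beta-catenin gene Ctnnb1 had -0.61 and -0.47, and Cdh3, Ctnna1 and Ctnnd1 were not called. Differences between these falls were not tested, and without MK2 replicate 1 Pvrl4 stood at -0.69 and Pvrl1 at -0.68. None rose (0 also at an unadjusted p under 0.05, and 0 by DESeq2's Wald test). The test was edgeR's quasi-likelihood test over 12479 genes with Benjamini-Hochberg adjustment and a threshold of 0.05. It called 54.6% of all tested genes and called 28.6% lower, so that 4 calls among 7 genes (57.1%) is close to the share among all genes. The median log2 fold change of the 7 was -0.47, against -0.01 over all tested genes. The CPM of the lines did not overlap for 6 of the 7, as for 80.5% of all tested genes. Against a change of 2-fold, edgeR's glmTreat called 0 of the 7 (0 also at an unadjusted p under 0.05) and 13.3% of all genes. Without MK1 replicate 1 only Cdh1 of the 7 was called, when 29.4% of all genes were, and without MK1 replicate 2 there were 2 calls, when 34.2% of all genes were called.

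**Figure D1:**
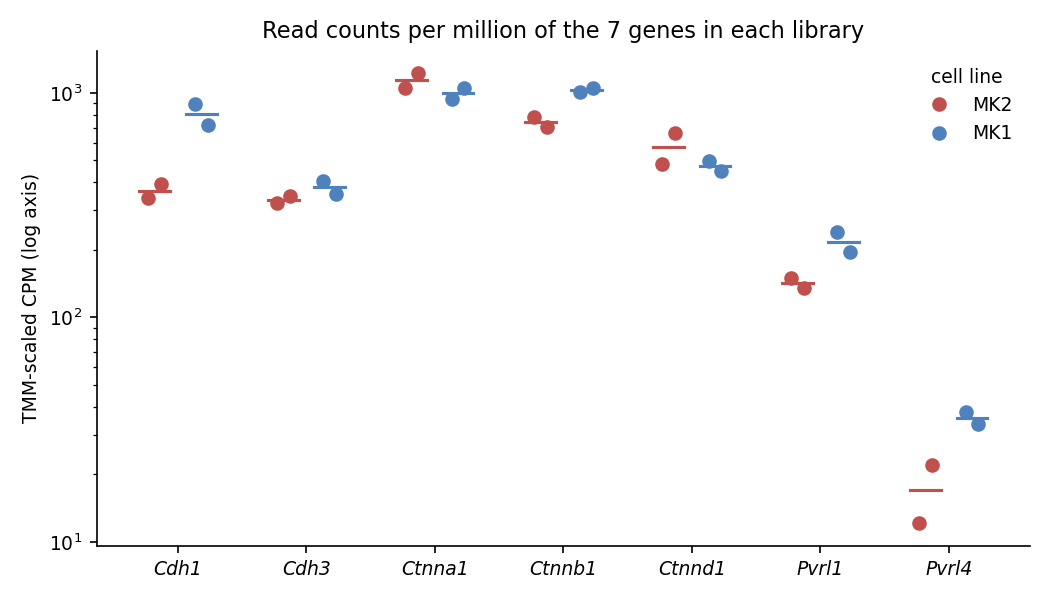
TMM-scaled CPM (log axis) of the 7 genes in each library, MK2 in red and MK1 in blue. Points are single cultures and bars are means of 2 cultures. Both MK2 points lie below both MK1 points for Cdh1, Cdh3, Ctnnb1, Pvrl1 and Pvrl4, and the lines overlap for Ctnnd1.

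The bases just before the start of Ctnnb1 and of Pvrl4 are shown, as these members fell and a RefSeq start of each (GRCm38.p6, the assembly of mm10) is the first base of the gene in the count table. RefSeq gives Ctnnb1 a further start 178 bases downstream, whose window also held 0 E-boxes and is not printed. Each window holds the 250 bases before that start, 5′ to 3′ on the gene's strand, chr9:120933150-120933399 and chr1:171369923-171370172. Capitals mark the E-box CANNTG, a general pattern that takes in the narrower motifs bound by Snail, Zeb and Twist proteins. It reads the same on both strands as a pattern.
Ctnnb1: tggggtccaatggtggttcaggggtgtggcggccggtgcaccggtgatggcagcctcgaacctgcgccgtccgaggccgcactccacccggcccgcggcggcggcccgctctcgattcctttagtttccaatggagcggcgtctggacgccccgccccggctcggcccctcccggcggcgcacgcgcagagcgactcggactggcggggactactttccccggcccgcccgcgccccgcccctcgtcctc
Pvrl4: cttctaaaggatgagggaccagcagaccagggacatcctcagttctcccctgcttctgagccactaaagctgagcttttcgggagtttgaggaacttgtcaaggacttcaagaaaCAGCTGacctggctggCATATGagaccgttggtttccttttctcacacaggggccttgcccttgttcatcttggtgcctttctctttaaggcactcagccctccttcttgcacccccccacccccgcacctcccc
The Ctnnb1 window had 74.8% G and C and no E-box (0 matches). The Pvrl4 window had 54.4% G and C and 2 E-boxes that do not overlap, beginning 135 and 119 bases before the start. An E-box occurs in 66.2% of the 32851 RefSeq windows of this length, whose median content of G and C was 52.4%. The stricter form CAGGTG, on either strand, was in neither window and occurs in 17.2% of all windows. These matches describe letters and not bound sites.

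Cdh1 encodes E-cadherin, the main classical cadherin of epithelia (chromosome 8, 106603368 to 106670246, mm10, forward strand). It stood at 340 and 393 CPM in the MK2 cultures, against 896 and 721 CPM in the MK1 cultures. Both MK2 values lay far below both MK1 values. The log2 fold change, MK2 over MK1, was -1.14 (SE 0.143, 95% interval -1.48 to -0.80, adjusted p = 9.08e-04 in edgeR's quasi-likelihood test), a ratio of 0.454. The call held when any 1 of the 4 libraries was left out, with log2 changes between -1.29 and -0.98. The interval includes -1, and the change was not called beyond 2-fold (glmTreat adjusted p = 0.340).

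Cdh3 encodes P-cadherin, the classical cadherin of basal keratinocytes and hair follicle cells (chromosome 8, 106510891 to 106556908, forward strand). It stood at 322 and 348 CPM in MK2, against 404 and 355 CPM in MK1. The MK2 values lay just below the MK1 values, by less than the gap between the MK1 cultures. Its log2 fold change was -0.18 (SE 0.114, 95% interval -0.45 to 0.09, adjusted p = 0.218 in edgeR's quasi-likelihood test), so that a fall of up to 0.45 on the log2 scale lies within the interval.

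The 2 cadherin genes are neighbours on chromosome 8, in the same orientation, with 46.5 kb between the end of Cdh3 and the start of Cdh1. Their surroundings were on the whole higher in MK2. Among the 50 tested genes nearest to Cdh1 by order, 27 were called higher and 2 lower, with a median log2 fold change of 0.43, and the median of 687 tested genes on chromosome 8 was 0.29. Zfp90, the next tested gene on the Cdh3 side, had a log2 change of -0.03 and Tango6, on the Cdh1 side, one of 0.22, and neither was called (adjusted p = 0.854 and 0.206 in edgeR's quasi-likelihood test). Farther out Has3, a hyaluronan synthase, was called higher (log2 change 0.97, adjusted p = 0.0253 in edgeR's quasi-likelihood test) at 2.96 CPM in MK2 and 1.51 CPM in MK1, and Prmt7, an arginine methyltransferase, was called higher as well (log2 change 0.85, adjusted p = 9.38e-04). None of the 3 nearest tested genes on either side of Cdh1 was called lower. Farther out on the Cdh3 side Pla2g15 was called lower (log2 change -1.02, adjusted p = 0.00200 in edgeR's quasi-likelihood test), at 8.55 CPM in MK2 and 17.4 CPM in MK1.

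**Figure D2:**
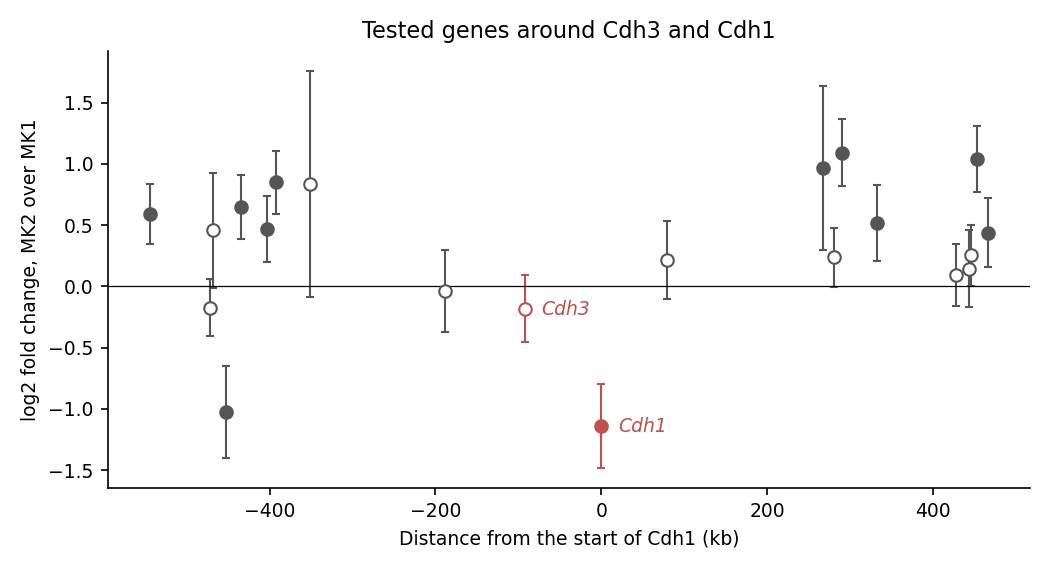
Log2 fold changes, MK2 over MK1, of Cdh1, Cdh3 and the other tested genes nearest to Cdh1 against distance from the start of Cdh1 in kb, with 95% intervals. Filled points passed the test and open points did not. Cdh1 at -1.14 lies below its neighbours Cdh3 (-0.18) and Tango6 (0.22), and Pla2g15, farther out on the Cdh3 side, lies at -1.02.

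Because levels of different genes can be compared only per length, the make-up of the cadherin mRNA was taken from TPM, counts divided by exon length and scaled to a fixed sum. In TPM, Cdh1 stood at 166 ± 14.6 in MK2 and 384 ± 65.1 in MK1 (SD, n = 2; all SDs below are over 2 cultures per line). Cdh3 stood at 167 ± 6.94 TPM in MK2 and 199 ± 21.3 TPM in MK1. Cdh3 therefore made up 51.1% and 49.4% of the summed TPM of both genes in the MK2 cultures, against 33.2% and 35.2% in the MK1 cultures. The 2 mRNAs were about equal in MK2, with a Cdh1 to Cdh3 ratio of 0.991 ± 0.0460, while in MK1 the ratio was 1.92 ± 0.121. The shares of the lines did not overlap, and the gap of 16.0 percentage points was many times the gap within a line. With 2 cultures against 2, an exact permutation test cannot give less than 0.333 (two-sided), which is the value it gave.

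Another classical cadherin had a similar level. Cdh2, which encodes N-cadherin, best known from neural and mesenchymal cells, stood at 336 and 337 CPM in MK2, against 427 and 324 CPM in MK1. One MK1 culture lay above all others and the other lay below both MK2 cultures. The gene was not called (log2 change -0.16, 95% interval -0.51 to 0.19, adjusted p = 0.387 in edgeR's quasi-likelihood test), and without MK1 replicate 1 the change had the opposite sign, 0.05. Vim, the mesenchymal intermediate filament gene, stood at 0.353 to 0.397 CPM in MK2 and 0.428 to 0.633 CPM in MK1, and Col1a2 had at most 1 count in a library. Pdgfra, also a fibroblast marker, was called lower in MK2 (log2 change -2.11, adjusted p = 0.00800 in edgeR's quasi-likelihood test). It had 8 and 28 counts in MK2, against 98 and 68 counts in MK1. Of the summed TPM of Cdh1, Cdh2 and Cdh3, Cdh2 made up 30.3% ± 1.58 in MK2 and 22.4% ± 1.11 in MK1, and Cdh1 made up 34.7% ± 1.60 in MK2 and 51.0% ± 0.366 in MK1. The sum of the 3 was 464 and 492 TPM in MK2, against 838 and 665 TPM in MK1.

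**Figure D3:**
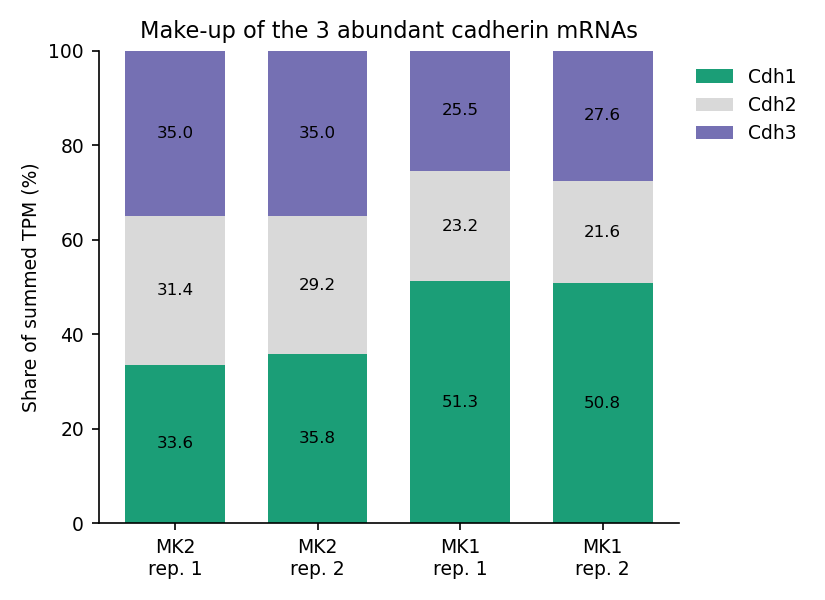
Share (%) of Cdh1, Cdh2 and Cdh3 in their summed TPM in each library. In both MK2 cultures the 3 genes hold about equal parts, whereas in both MK1 cultures Cdh1 holds 51.3% and 50.8%.

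The catenin genes did not move together. Ctnnb1 encodes beta-catenin, which binds the cadherin tail and also acts in the nucleus in Wnt signalling (chromosome 9, 120933400 to 120960507, forward strand). It stood at 779 and 706 CPM in MK2, against 1007 and 1052 CPM in MK1, and the lines did not overlap. Its log2 fold change was -0.47 (SE 0.106, 95% interval -0.72 to -0.22, adjusted p = 0.00945 in edgeR's quasi-likelihood test). The call ended without MK1 replicate 1 (log2 change -0.51, adjusted p = 0.0646 in edgeR's quasi-likelihood test) or MK1 replicate 2 (log2 change -0.44, adjusted p = 0.0828).

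Ctnna1 encodes alpha-catenin, the link from beta-catenin to actin (chromosome 18, 35118912 to 35254775, forward strand). Its levels were 1055.1 and 1223 CPM in MK2, against 936 and 1055.0 CPM in MK1. The lower MK2 culture and the higher MK1 culture were practically equal. The log2 fold change of 0.19 was not called (SE 0.123, 95% interval -0.10 to 0.49, adjusted p = 0.217 in edgeR's quasi-likelihood test). Per length, alpha-catenin mRNA exceeded beta-catenin mRNA in MK2, with a TPM ratio of 1.34 and 1.71 in the cultures, whereas in MK1 the ratio was 0.917 and 0.989. Again the lines did not overlap, and the exact permutation test gave 0.333 (two-sided), the smallest value possible with 2 cultures against 2.

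Ctnnd1 encodes p120-catenin, which binds the cadherin tail near the membrane and slows its removal from the surface (chromosome 2, 84600781 to 84650740, reverse strand). It stood at 484 and 665 CPM in MK2, against 495 and 447 CPM in MK1. One MK2 culture was above every other library and the other fell between the MK1 cultures. The log2 fold change was 0.29 (SE 0.163, 95% interval -0.10 to 0.67, adjusted p = 0.177 in edgeR's quasi-likelihood test). With MK2 replicate 1 left out the gene was called higher, by 0.50 on the log2 scale (adjusted p = 0.00750 in edgeR's quasi-likelihood test), and with MK2 replicate 2 left out the log2 change was 0.04. The counts sum all transcripts of the gene, so splice forms of p120-catenin were not told apart.

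Plakoglobin, encoded by Jup, takes the place of beta-catenin in part of the cadherin complexes and is shared with desmosomes. It stood at 841 and 973 CPM in MK2, against 1163 and 1057 CPM in MK1. Jup did not pass the test (log2 change -0.29, adjusted p = 0.0758 in edgeR's quasi-likelihood test), although the lines did not overlap, and with MK2 replicate 2 left out it was called, at a log2 change of -0.40 (adjusted p = 0.0195), as it was with upper-quartile scaling (adjusted p = 0.0449). The TPM of Ctnnb1 and Jup together summed to 772 ± 1.53 in MK2 and 1058 ± 29.8 in MK1, of which Jup made up 46.9% ± 4.26 in MK2 and 43.8% ± 2.42 in MK1.

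Both nectin genes among the 7 fell. Pvrl1 encodes nectin 1 (chromosome 9, 43744576 to 43807461, forward strand). It stood at 150 and 136 CPM in MK2, against 240 and 195 CPM in MK1, with no overlap. The log2 fold change was -0.61 (SE 0.133, 95% interval -0.92 to -0.29, adjusted p = 0.00831 in edgeR's quasi-likelihood test). The call ended without MK1 replicate 1 (log2 change -0.45, adjusted p = 0.0773 in edgeR's quasi-likelihood test).

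Pvrl4 encodes nectin 4, which binds nectin 1 on the neighbouring cell (chromosome 1, 171370173 to 171388287, forward strand), and the window before its start is the one with 2 E-boxes. It was the least abundant of the 7, with 305 and 623 counts in MK2 and 1153 and 898 counts in MK1. These gave 12.1 and 22.0 CPM in MK2, against 37.9 and 33.4 CPM in MK1. Both MK2 values were below both MK1 values, and the MK2 cultures differed from each other by 0.85 on the log2 scale, the widest gap between cultures of 1 line for any of the 7. The log2 fold change was -1.06 (SE 0.261, 95% interval -1.68 to -0.44, adjusted p = 0.0131 in edgeR's quasi-likelihood test). The call ended without MK1 replicate 1 (log2 change -0.97, adjusted p = 0.0955 in edgeR's quasi-likelihood test) or MK1 replicate 2 (log2 change -1.16, adjusted p = 0.0548). Leaving out MK2 replicate 1 gave -0.69 and leaving out MK2 replicate 2 gave -1.56, and both were called.

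The other nectins were measured alongside. Nectin 2, encoded by Pvrl2, stood at 72.8 and 92.7 CPM in MK2, against 103 and 105 CPM in MK1, and was not called (log2 change -0.33, adjusted p = 0.0769 in edgeR's quasi-likelihood test), except with MK2 replicate 2 left out, at a log2 change of -0.52 (adjusted p = 0.00836), and with upper-quartile scaling (adjusted p = 0.0489). Pvrl3 was at 0.755 and 1.06 CPM in MK2 and 0.559 and 0.819 CPM in MK1. Summed over Pvrl1 to Pvrl4, nectin mRNA stood at 114 ± 6.73 TPM in MK2 and 175 ± 16.8 TPM in MK1. Pvrl1 made up 49.4% ± 7.04 of it in MK2 and 51.3% ± 3.40 in MK1, and Pvrl4 8.39% ± 2.87 in MK2 and 12.2% ± 0.109 in MK1. Mllt4, which encodes afadin, the actin link of all nectins, stood at 311 and 435 CPM in MK2, against 318 and 266 CPM in MK1. It was not called (log2 change 0.35, adjusted p = 0.133 in edgeR's quasi-likelihood test), but with MK2 replicate 1 left out it was called, at a log2 change of 0.58 (adjusted p = 0.00721).

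**Figure D4:**
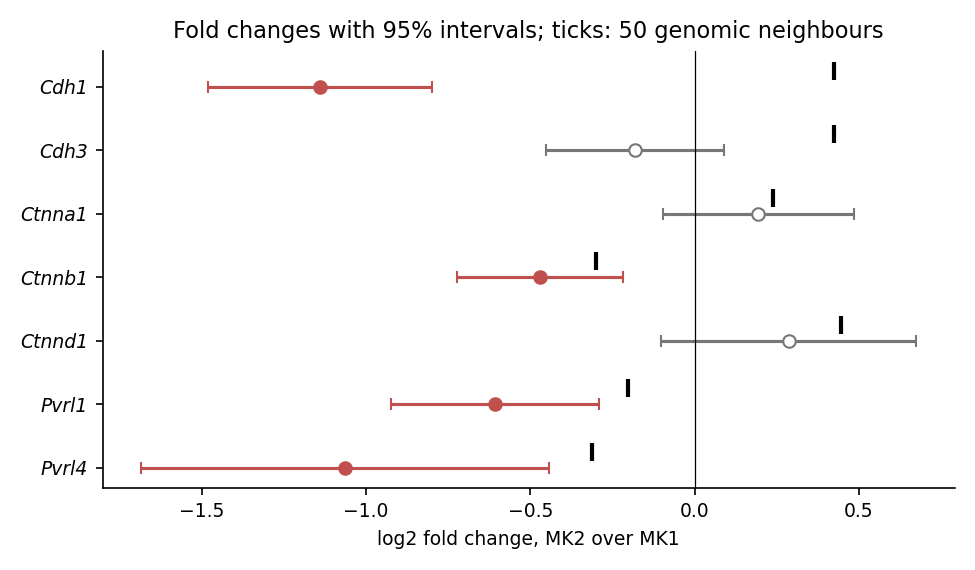
Log2 fold changes, MK2 over MK1, of the 7 genes with 95% intervals. Filled points passed the test, open points did not, and each black tick is the median of its 50 nearest tested genes on the chromosome. Cdh1 lies at -1.14 where its neighbours have a median of 0.43, while Ctnna1 lies near its neighbours' 0.24.

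Median log2 changes differed between chromosomes, for example 0.36 on chromosome 2 and -0.23 on chromosome 9, so each member was set beside the genes around it. The 50 neighbours had a median log2 change of 0.44 for Ctnnd1 and 0.24 for Ctnna1, both of which were themselves above 0. Around Ctnnb1, Pvrl1 and Pvrl4 the neighbours' medians were -0.30, -0.20 and -0.31. These 3 genes fell by 0.47, 0.61 and 1.06 on the log2 scale, each more than the median around it. Cdh1 and Cdh3 were the members whose sign was opposite to that of their neighbourhood. Of the 3 nearest tested genes on each side of Pvrl1, 4 were called lower and 2 were not called. The nearest on either side, Usp2 and Trim29, had log2 changes of -2.41 and -1.23 (adjusted p = 6.86e-05 and 3.66e-04 in edgeR's quasi-likelihood test). Mcam, an immunoglobulin-like adhesion gene 327 kb from Pvrl1, had a log2 change of -1.76 (adjusted p = 4.72e-05), and Rnf26, which lies between Usp2 and Mcam, had one of 0.23 and was not called.

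In TPM the order of the 7 genes differed between the lines. In MK2 the order from high to low was Ctnna1 at 619 ± 56.3, Ctnnb1 at 410 ± 33.7, Ctnnd1 at 209 ± 43.9, Cdh3, Cdh1, Pvrl1 at 56.4 ± 4.74 and Pvrl4 at 9.70 ± 3.85 TPM, and of neighbours in this order only Cdh3 and Cdh1 overlapped. In MK1 Ctnnb1 came first at 594 ± 8.89 TPM and overlapped with Ctnna1 at 566 ± 38.6 TPM. Cdh1 followed, Cdh3 and Ctnnd1 (180 ± 15.9 TPM) overlapped with each other, and Pvrl1 at 90.0 ± 14.6 and Pvrl4 at 21.3 ± 2.24 TPM came last. Summed cadherin TPM (Cdh1, Cdh2 and Cdh3) was 2.60 and 2.05 times that of Ctnnd1 in the MK2 cultures, against 4.38 and 3.94 times in the MK1 cultures. Its ratio to Ctnnb1 plus Jup was 0.600 and 0.639 in MK2, against 0.777 and 0.642 in MK1, where the higher MK2 value nearly reached the lower MK1 value.

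The genes most like each member in pattern were sought among 8911 genes with a mean of 10 CPM or more, by the distance between centred log2 CPM over the 4 libraries. The nearest to Cdh1 were Plekhh1, Las1l and Mmd, at distances of 0.0235, 0.0344 and 0.0391. For Cdh3 they were Abhd5, Fadd and Mgat1, for Ctnna1 Rsu1, Dnajc19 and Cox20, and for Ctnnb1 Lims1, Hadhb and Cisd2. For Ctnnd1 they were Numbl and Abcc1, and for Pvrl1 Ip6k1, Rreb1 and Dcaf6. The nearest to Pvrl4 was Cgn, which encodes the tight-junction protein cingulin, at a distance of 0.116, followed by Stbd1 and Kif3c. Cgn stood at 32.6 and 54.4 CPM in MK2, against 94.0 and 80.6 CPM in MK1. The distance takes in the gaps between cultures of a line as well as the difference between the lines. Whether such likeness means more than near values in 4 libraries was not tested.

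Partners of the junction were counted in lists chosen with earlier results of these data known. Over 10 lists, 109 genes were tested, of which 27 were called higher, 35 lower and 47 not called, against 25.9% higher and 28.6% lower among all genes. Their median log2 fold change was 0.02, against -0.01 over all tested genes. Without MK1 replicate 1 the calls were 41 in place of 62, and the calls of higher genes were 16 without MK1 replicate 1 and 17 without MK1 replicate 2.

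Other cadherins were few. Of 20 listed, 10 had 0 counts in every library and 5 were tested, of which 2 rose and 1 fell, a count of 1 call without MK1 replicate 2. Cdh13, which encodes T-cadherin, a cadherin held by a lipid anchor with no tail for catenins, rose to 35.1 and 32.2 CPM in MK2, against 14.8 and 15.9 CPM in MK1 (log2 change 1.13, adjusted p = 5.78e-04 in edgeR's quasi-likelihood test). Its lines were well apart.

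Of 6 tested genes on a list of relatives and partners of the catenins, 4 rose and none fell (0 by edgeR and 0 by DESeq2's Wald test, and 1, Jup, at an unadjusted p under 0.05), with a median log2 change of 1.14. Ctnnal1 encodes alpha-catulin, a relative of alpha-catenin, and stood at 240 and 148 CPM in MK2, against 3.62 and 6.55 CPM in MK1 (log2 change 5.26, adjusted p = 8.26e-05 in edgeR's quasi-likelihood test). Every MK2 culture was thus far above every MK1 culture. Ctnnbip1 encodes a small inhibitor of the binding of beta-catenin to TCF factors and rose by 1.39 on the log2 scale, to 27.3 and 26.2 CPM in MK2, against 9.80 and 10.7 CPM in MK1. Pkp4, an armadillo-repeat relative of p120-catenin, rose by 0.89 (adjusted p = 3.51e-04 and 0.00130 for Ctnnbip1 and Pkp4 in edgeR's quasi-likelihood test). The remaining riser, Ctnnd2, had only 63 and 26 counts in MK2 (2.50 and 0.917 CPM) and 0 counts in MK1. Ctnnbip1 is on the list as a partner and not as a relative of the catenins. Of 6 tested relatives of the nectins and afadin, only the nectin-like gene Cadm1 was called, lower by a log2 change of -0.71 (adjusted p = 0.00245), but 4 of the list were called without MK2 replicate 1.

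Of 25 genes that link the junction to actin or microtubules 3 rose and 8 fell, with a median log2 change of -0.14. Vcl encodes vinculin, which alpha-catenin recruits under tension, and stood at 249 and 220 CPM in MK2, against 562 and 539 CPM in MK1 (log2 change -1.23, adjusted p = 2.57e-04 in edgeR's quasi-likelihood test). Vcl was lower in both MK2 cultures than in either MK1 culture. Evl, an actin filament elongation factor, stood at 0.556 and 0.847 CPM in MK2, against 23.5 and 22.5 CPM in MK1. Camsap3, which holds microtubule ends, rose by 1.72 on the log2 scale (adjusted p = 2.02e-05 for Evl and 1.81e-04 for Camsap3 in edgeR's quasi-likelihood test).

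**Figure D5:**
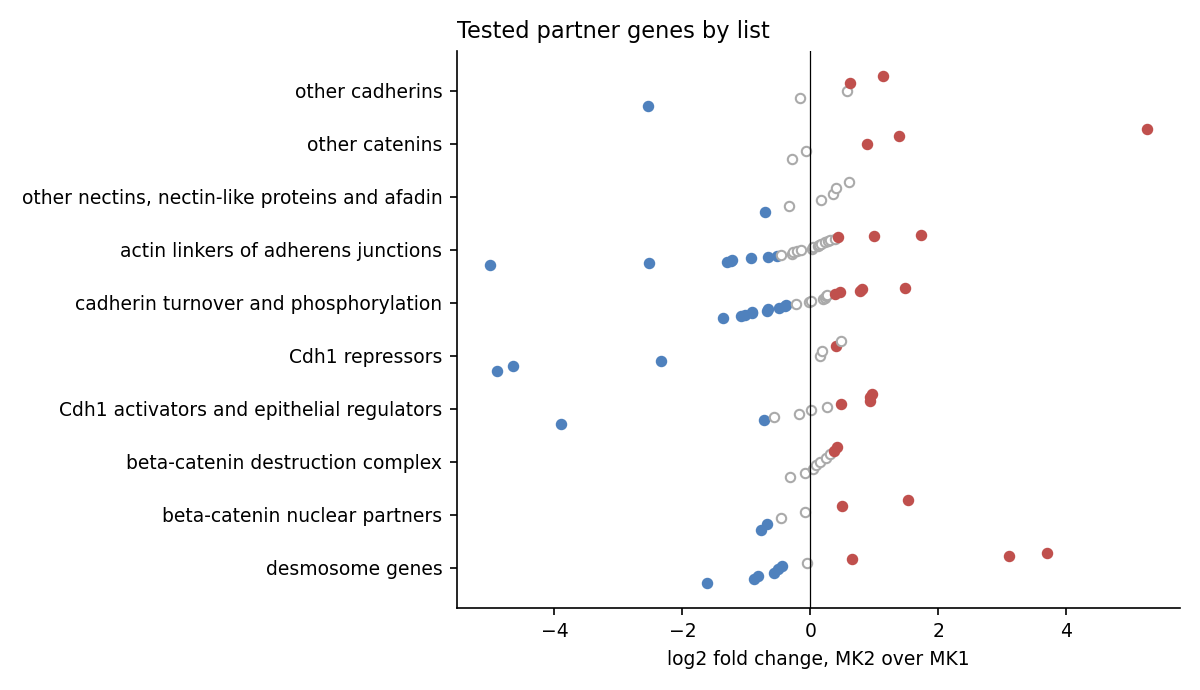
Log2 fold changes, MK2 over MK1, of tested partner genes by list, where red points were called higher, blue points lower and open points were not called. The 4 tested genes with 0 counts in 1 line are not drawn. Called genes lie on both sides of 0 in most lists, and the largest rise drawn is that of Ctnnal1 at 5.26.

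Of 23 tested genes of cadherin turnover and phosphorylation 5 rose and 11 fell, with a median of -0.23, and without MK1 replicate 2 there were 10 calls in place of 16. Numb, an endocytic adaptor, fell by 1.09 and the receptor phosphatase gene Ptprj by 1.01 on the log2 scale, and Fyn, a Src-family kinase gene, rose by 1.48 (adjusted p = 4.52e-04, 0.00221 and 0.00586 in edgeR's quasi-likelihood test). Ptprm, also a receptor phosphatase gene, had 0 counts in MK2 and 318 and 196 counts in MK1 (adjusted p = 1.26e-04). It was the 1 gene of this list that glmTreat called beyond 2-fold. One listed gene of this group was not analysed here.

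Listed repressors of Cdh1 went both ways. Of 8 tested, 4 fell, 1 rose and 3 were not called, with a median of -1.10. Summed over the 10 listed, their level was 196 and 192 CPM in MK2, against 199 and 208 CPM in MK1. Most of this came from Snai2 and from Tcf3, which stood at 82.1 and 84.7 CPM in MK2, against 74.5 and 72.6 CPM in MK1, and was not called. The part of these genes in the Cdh1 difference was not tested. Twist1, a basic helix-loop-helix factor, stood at 1.23 and 1.20 CPM in MK2, against 32.1 and 40.6 CPM in MK1 (log2 change -4.90, adjusted p = 1.46e-05 in edgeR's quasi-likelihood test). Zeb1, a zinc-finger factor, had 3 and 4 counts in MK2 and 104 and 89 counts in MK1 (log2 change -4.64, adjusted p = 1.21e-04). Snai2, which encodes Slug, was the most abundant Snail gene and rose by 0.40 on the log2 scale, to 84.0 and 82.5 CPM in MK2, against 62.1 and 63.7 CPM in MK1 (adjusted p = 0.0133 in edgeR's quasi-likelihood test). Snai2 was no longer called when either MK1 culture was left out, with an adjusted p of 0.103 without replicate 1 and 0.0777 without replicate 2. Snai1 had 4 and 3 counts in MK2 and 2 and 5 counts in MK1, and Zeb2 had 1 and 18 counts in MK2 and 8 and 7 counts in MK1, too few to be tested.

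Of 10 tested activators of Cdh1 and epithelial regulators 4 rose and 2 fell, a count of 3 calls without MK1 replicate 1. Esrp1, a splicing factor known to act on p120-catenin transcripts, and Klf4, a zinc-finger factor of epidermal differentiation, rose by 0.97 and 0.93 on the log2 scale, and the ETS factor gene Elf3 fell by 3.90 (adjusted p = 4.63e-04, 0.00117 and 7.63e-05 in edgeR's quasi-likelihood test). Grhl2, an activator of Cdh1, stood at 113 and 97.8 CPM in MK2, against 106 and 102 CPM in MK1 (log2 change 0.02, 95% interval -0.25 to 0.29, adjusted p = 0.900).

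Of 9 genes of the complex that degrades beta-catenin 2 rose and none fell (0 by edgeR, by DESeq2's Wald test and at an unadjusted p under 0.05). They were the scaffolds Axin1 and Apc, with log2 changes of 0.42 and 0.38 (adjusted p = 0.0195 and 0.0459 in edgeR's quasi-likelihood test), and neither was called without MK1 replicate 1 or without MK1 replicate 2 (adjusted p = 0.0687 and 0.144 for Axin1, 0.251 and 0.119 for Apc) or without MK2 replicate 1 (adjusted p = 0.0518 for Axin1 and 0.151 for Apc). Scaling moved the Apc call as well, with adjusted p = 0.0550 by library size alone. Among 6 tested nuclear partners of beta-catenin 2 rose and 2 fell, with 0 calls without MK1 replicate 1 and 1 without MK1 replicate 2. The coactivator gene Bcl9 rose by 0.49 on the log2 scale, but had an adjusted p of 0.0522 with MK1 replicate 1 left out and of 0.146 with MK1 replicate 2 left out (in edgeR's quasi-likelihood test). Its relative Bcl9l fell by 0.68 and had an adjusted p of 0.0947 with MK1 replicate 1 left out.

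Desmosomes are the other cadherin junction of keratinocytes. Of 11 tested desmosome genes, plakoglobin not among them, 6 fell and 4 rose. Thus 10 were called, where 54.6% of all tested genes were. Their median was -0.44, against -0.47 for the 7 adherens junction genes, but the called desmosome genes lay on both sides of 0. Dsg2, a desmosomal cadherin gene, stood at 22.6 and 23.7 CPM in MK2, against 79.1 and 62.4 CPM in MK1 (log2 change -1.61, adjusted p = 2.36e-04 in edgeR's quasi-likelihood test). The plaque protein genes Dsp and Pkp2 had log2 changes of -0.81 and -0.89 (adjusted p = 0.00330 and 0.00212). Dsg3, an abundant desmosomal cadherin gene, was called lower too (log2 change -0.44, adjusted p = 0.0267 in edgeR's quasi-likelihood test). It stood at 780 and 634 CPM in MK2, against 922 and 997 CPM in MK1. The 4 genes that rose, named here after their values were seen, as was Dsg3, are all desmosomal cadherin genes. Dsc3 was the abundant one, at 1076 and 974 CPM in MK2, against 631 and 677 CPM in MK1 (log2 change 0.65, adjusted p = 0.00287 in edgeR's quasi-likelihood test). Dsg1a, Dsg1b and Dsc2 were called higher at no more than 2.86 CPM in any library, with Dsc2 at 0 counts in MK1, and reads of Dsg1a and Dsg1b, which are near-identical copies, could have been split between them. Of 4 desmosome genes called beyond 2-fold by glmTreat, these 3 were higher and Dsg2 was lower. No test of the difference between the 2 junctions was made.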

How the data were processed

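The deposited file holds raw read counts per gene that the authors had not normalised, together with each gene's exon length. The counts are, per the file headers, of aligned reads over exons grouped by gene name, made with featureCounts 1.4.6-p4 and the UCSC mm10 annotation, with no option set for strand, read pairs or multiple alignments. DESeq2 1.10.1, featureCounts 1.5.0, TopHat2 2.0.13 and Bowtie2 2.2.6 are named in the submitters' processing notes. The header's command writes MKU where the column names write MK2, and columns were matched to titles by line and replicate number. In the counted annotation no exon base of the 7 genes was shared with another gene (0 bases).

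Genes were filtered with filterByExpr (minimum count 10), scaled with TMM and tested with edgeR 4.0.16 in R 4.3.3, two-sided, at an adjusted p of 0.05 over 12479 genes. All 7 genes passed the filter. CPM used TMM-scaled library sizes. The SE came from the quasi-likelihood F statistic. A level of 3 counts equals 0.0987 to 0.119 CPM. Neighbours were taken by the deposited coordinates. Promoter windows came from a set of RefSeq starts on GRCm38.p6. Those of 3 of the 7 genes were analysed, Ctnnb1, Ctnnd1 and Pvrl4. The set used held no entry for Cdh1, Cdh3 or Pvrl1. The procedure was tested on simulated data in which far fewer genes changed than were called here. Its error rate at the share of calls seen here was not tested.

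Replicates of a line differed by more than counting noise (median chi-square per gene 4.78 in MK2 and 3.22 in MK1), so each counted once. Text names the 7 genes, up to 3 called genes of largest change per list at 10 CPM or more, 12 set partners, marker genes, and genes near in pattern or position, of which some are not reported here. The genes, lists and rules were chosen with earlier results of these data known. Alternatives covered scaling, filters, DESeq2 1.42.0, glmTreat, each library left out, and the replicate block.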

Additional observations from a re-analysis of the deposited data

How the results depend on the processing

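Having 2 cultures a line limits every test, and Pvrl4 has the lowest counts of the 7 genes. Leaving out 1 library moved all calls between 3716 and 6847 (higher 1527 to 3222, lower 2189 to 3625), calls among the 7 between 1 and 5, and partner calls between 41 and 68 (higher 16 to 28, lower 25 to 40). Called per list, they ran from 1 to 2 (other cadherins), 4 to 5 (other catenins), 1 to 4 (nectin relatives), 9 to 14 (actin linkers), 10 to 17 (turnover), 4 to 6 (repressors), 3 to 7 (activators), 0 to 2 (destruction complex), 0 to 5 (nuclear partners) and 7 to 10 (desmosomes). Log2 changes ran from -1.29 to -0.98 for Cdh1, -0.27 to -0.09 for Cdh3, 0.09 to 0.30 for Ctnna1, -0.54 to -0.40 for Ctnnb1, 0.041 to 0.50 for Ctnnd1, -0.75 to -0.45 for Pvrl1 and -1.56 to -0.69 for Pvrl4. The Cdh3 share differed by 15.0 to 17.0 percentage points.

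Beyond 2-fold, a stricter question by construction, glmTreat called 1662 genes (405 higher, 1257 lower), 0 of the 7 and 17 partners (7 higher, 10 lower). By list these were 0 other cadherins, 3 other catenins, 4 repressors, 0 nectin relatives, 4 actin linkers, 1 turnover gene, 1 activator, 0 of the destruction complex, 0 nuclear partners and 4 desmosome genes (3 higher, 1 lower). Its adjusted p was 0.340 for Cdh1 (log2 change -1.14), 1 for Ctnnb1 (-0.47) and Pvrl1 (-0.61), and 0.856 for Pvrl4 (-1.06). Calls among nectin relatives were 2 with the upper quartile, with no low-count filter and by the DESeq2 test. Calls in the destruction complex were 1 by library size alone, with the upper quartile and at a minimum count of 50. Grhl2 changed sign with the upper quartile (-0.039), without MK1 replicate 2 (-0.0070) and without MK2 replicate 1 (-0.084), and ran up to 0.12 with a library left out. Cdh2 changed sign without MK1 replicate 1 (0.052), in a range down to -0.35. The causes were not tested. Other recomputed values, 623 of them, kept their direction and their side of the threshold or, for counts, stayed within 1.5 times the count reported.

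Same-numbered cultures of the lines did not deviate together (correlation -0.148), so the numbers do not pair them. With the replicate block 5908 genes and 4 of the 7 were called, with Cdh1 at -1.14, Ctnnb1 at -0.47, Pvrl1 at -0.60 and Pvrl4 at -1.12, and 1 gene of the destruction complex. With the crossed replicate block, added after the data were seen, 7454 genes, 4 of the 7 and 4 nectin relatives were called.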
